A study of Homo sapiens with 12 samples.

Results

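Interferon-induced membrane effectors are small proteins that interferons switch on and that act in or on membranes. They were followed here as 7 genes, IFI6, IFI27, IFITM1, IFITM2, IFITM3, BST2 and RARRES3, among 22650 gene symbols. The genes were chosen from a list of symbols, with their FPKM values in all groups known. Their own values and differences below are therefore a description, and no p-value is given for them. The fit over all genes includes 6 of them, and nothing is read from their calls. All 7 occur in the data, and 6 are listed in each of the 12 libraries. IFI27 is listed in 11 libraries and was taken as 0 in the other. A filter of at least 1 FPKM, as the mean over the 6 libraries of a line, was passed by 6 of the 7 genes, and IFI27 did not pass it.

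RNA-seq was made from ASAP2 knockout (KO) and wild-type (WT) cells of Panc1 and MiaPaCa2, established human cell lines of pancreatic ductal adenocarcinoma. ASAP2 switches off small GTPases of the Arf family, which direct membrane traffic. The groups are ASAP2 KO Panc1, WT Panc1, ASAP2 KO MiaPaCa2 and WT MiaPaCa2, with 3 libraries each, and no treatment is given in the labels. The sources used here do not give the way the knockout was made or whether a KO group is 1 clone or several. Nor do they say if a group's 3 libraries were separate cultures, so every SD and p-value measures only the spread between these libraries.

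Interferons signal through their receptors to the kinases JAK1 and TYK2. A complex that holds the transcription factors STAT2 and IRF9 then binds the interferon-stimulated response element (ISRE) in promoters, while interferon gamma acts mainly through the gamma-activated site (GAS). The proteins studied here act at different membranes. IFI6 resides in the endoplasmic reticulum and hinders flaviviruses from building their replication compartments there, and IFI27 is a relative of it that is found at mitochondria. IFITM1 sits mainly at the cell surface and IFITM2 and IFITM3 mainly in endosomes and lysosomes, where they hinder the fusion of virus and cell membranes. BST2, also named tetherin, holds budding virus particles on the cell surface. RARRES3, now named PLAAT4, is a phospholipase and acyltransferase of lipid metabolism that retinoids and interferons induce. Many tumour cell lines keep some expression of such genes without added interferon.

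Promoter windows from RefSeq (GRCh38.p14) were found for 5 of the genes, IFI6, IFI27, IFITM1, IFITM3 and BST2, and not for IFITM2 and RARRES3. Each window ran from 250 bases before to 50 bases after the transcript start. It was searched on both strands for the ISRE core, written GAAANNGAAA, and for the GAS, written TTCNNNGAA. All 5 genes held the ISRE core, and so did 3.57% of the 35116 promoter windows of the RefSeq table. The GAS was found in 3 of the 5 genes, IFI27, IFITM1 and BST2, and in 7.66% of all windows. The sequences are shown because they hold the element that the interferon-activated complex binds. Each line gives the 200 bases before and the 10 bases from the start, 5′ to 3′ on the gene's own strand, with the ISRE core in capitals and with IFI27 at the first of its 2 starts. The stretches are chr1:27672183-27672392 on the minus strand for IFI6, chr14:94110536-94110745 on the plus strand for IFI27, chr11:313840-314049 on the plus strand for IFITM1, chr11:320851-321060 on the minus strand for IFITM3 and chr19:17405621-17405830 on the minus strand for BST2.
IFI6: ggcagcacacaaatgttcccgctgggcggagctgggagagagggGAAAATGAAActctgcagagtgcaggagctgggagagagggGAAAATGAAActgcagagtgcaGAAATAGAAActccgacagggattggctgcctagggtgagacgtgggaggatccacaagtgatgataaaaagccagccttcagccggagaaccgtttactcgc
IFI27: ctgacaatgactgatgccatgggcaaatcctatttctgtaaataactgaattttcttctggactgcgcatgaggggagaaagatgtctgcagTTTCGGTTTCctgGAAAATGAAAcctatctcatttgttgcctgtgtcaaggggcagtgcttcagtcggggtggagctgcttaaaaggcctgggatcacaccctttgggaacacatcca
IFITM1: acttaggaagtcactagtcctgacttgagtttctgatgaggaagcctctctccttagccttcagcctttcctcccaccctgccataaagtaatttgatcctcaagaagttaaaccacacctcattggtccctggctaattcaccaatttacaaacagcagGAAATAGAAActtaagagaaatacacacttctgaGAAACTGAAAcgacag
IFITM3: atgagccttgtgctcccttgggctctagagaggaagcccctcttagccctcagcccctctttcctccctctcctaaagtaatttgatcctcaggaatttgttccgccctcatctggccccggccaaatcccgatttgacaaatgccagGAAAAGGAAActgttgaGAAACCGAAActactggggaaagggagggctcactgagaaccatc
BST2: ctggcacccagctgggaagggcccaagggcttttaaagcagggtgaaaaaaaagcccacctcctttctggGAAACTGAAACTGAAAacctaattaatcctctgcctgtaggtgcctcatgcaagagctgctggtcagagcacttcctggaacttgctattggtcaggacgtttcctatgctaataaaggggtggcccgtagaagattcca

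The matches differ in number and in distance from the start. IFI6 holds 3, whose first bases lie 156, 115 and 93 bases before the start. IFI27 holds 1 on the gene's strand at 95 bases and 1 on the other strand at 108 bases, with a GAS match between them that overlaps both. IFITM1 and IFITM3 have their matches closest to the start. Those of IFITM1 begin 40 and 6 bases before it, and the second of them runs across the start and overlaps a GAS match. Those of IFITM3 begin 52 and 35 bases before it. In BST2 a pair of matches at 130 and 124 bases overlap each other, and a GAS match at 136 bases overlaps the first of them. A second GAS match of BST2 lies at 58 bases. Such a match is a run of letters and was not tested for binding in these cells.

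**Figure D1:**
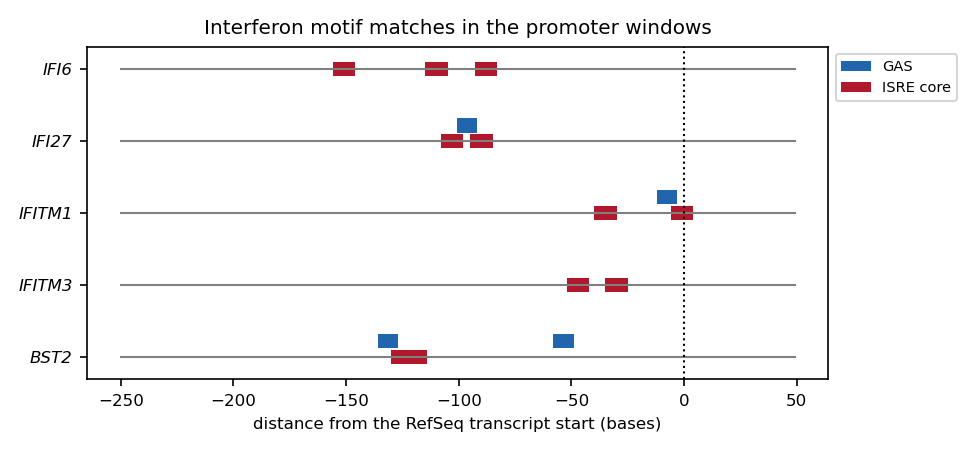
ISRE core and GAS matches on either strand in the RefSeq promoter windows of 5 genes, drawn by distance in bases from the transcript start (dotted line); IFI27 is drawn at the first of its starts. ISRE matches lie between 156 and 6 bases before the start in these 5 genes.

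The 12 libraries list 17958 to 19105 genes each, of which 11842 to 12500 reach 1 FPKM, and FPKM sum to between 360765 and 392610. The depth in reads is unknown, so low values carry a counting error that cannot be given. Log2 values correlated across genes at r = 0.9962 to 0.998 within a group, at 0.9839 to 0.994 between KO and WT of a line and at 0.8986 to 0.9113 between lines. ASAP2 itself had 14.2, 14.5 and 12.7 FPKM in Panc1 KO libraries, against 38.6, 37.5 and 34.6 FPKM in Panc1 WT libraries (log2 difference -1.36, limma adjusted p = 1.5e-08). MiaPaCa2 KO libraries held 12.01, 13.8 and 11.3 FPKM of it and MiaPaCa2 WT libraries 13.2, 13.6 and 13.8 FPKM (log2 difference -0.13, limma adjusted p = 0.197), so its mRNA does not check the MiaPaCa2 labels. That difference passed without MiaPaCa2 KO replicate 2, at -0.20, and also with array weights. Of the ductal markers, EPCAM, CDH1 and KRT7 were at or near 0 in MiaPaCa2, with means of at most 0.0577 FPKM. In Panc1 the means of CDH1 were at most 0.372 FPKM. The summed level of 6 ductal markers was 869 FPKM or more in every library, and KRT8, KRT18 and KRT19 made up most of it. Leukocyte markers summed to at most 0.916 FPKM and fibroblast markers to at most 0.83 FPKM in any library.

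In MiaPaCa2 all 6 members that passed the filter were lower in the KO libraries, and in Panc1 they went different ways. IFI6 and IFITM3 were higher in both KO and WT Panc1 cells than in MiaPaCa2 KO cells, and higher in Panc1 KO than in Panc1 WT cells. IFITM2 was lower in the KO libraries of both lines. BST2 exceeded 1 FPKM in MiaPaCa2 WT cells only, and RARRES3 in MiaPaCa2 cells only. In bulk RNA, fewer cells that express a gene and less of its RNA per cell cannot be told apart. Levels are FPKM, which are scaled to gene length. Differences are KO minus WT on the scale of log2(FPKM + 1), with the standard error (SE) from limma over all 12 libraries, and this scale understates the change of genes near or below 1 FPKM.

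**Figure D2:**
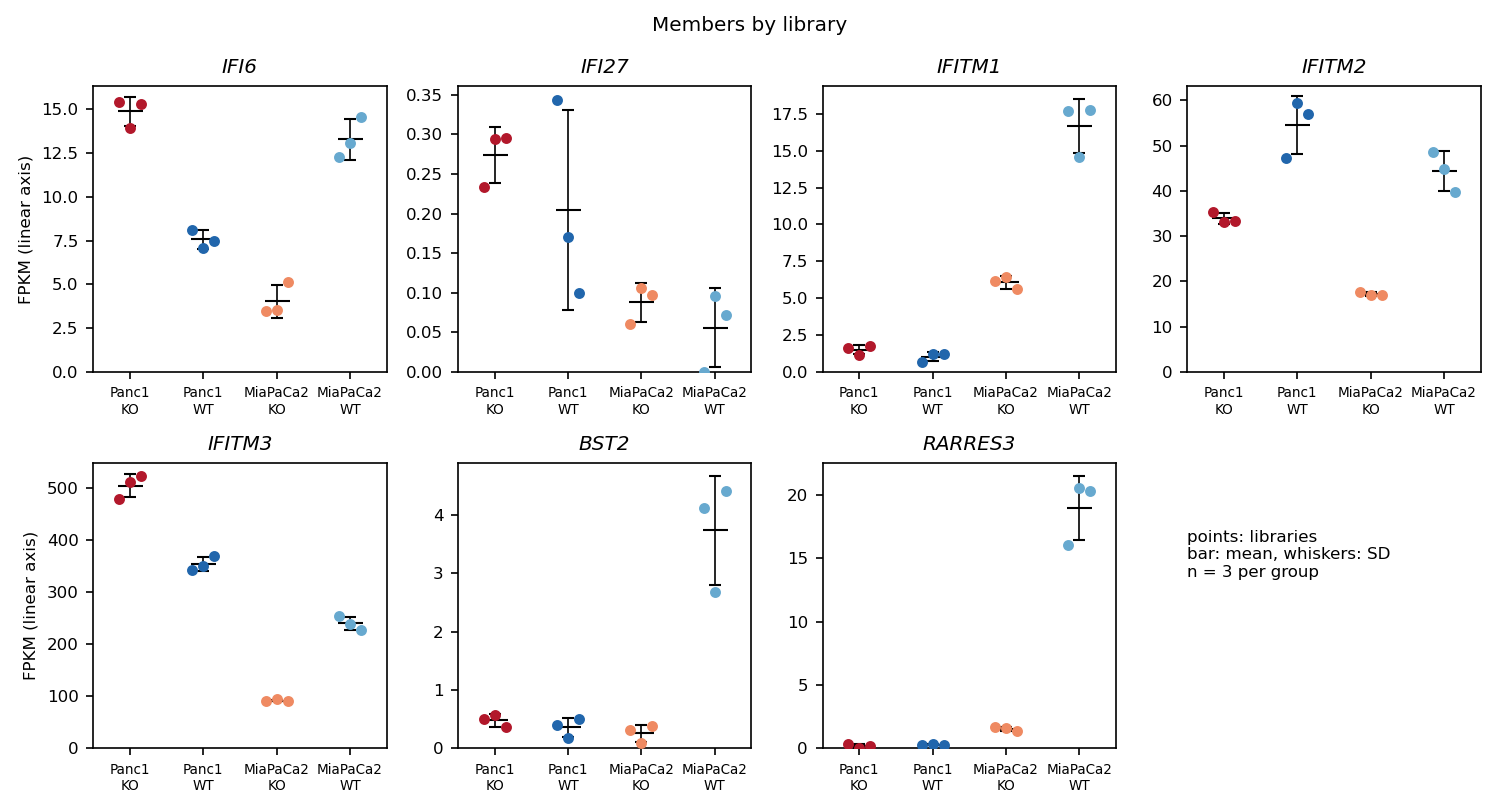
FPKM (linear axis, own scale per gene) of the 7 genes in Panc1 KO, Panc1 WT, MiaPaCa2 KO and MiaPaCa2 WT cells; points are libraries, bars the mean and whiskers the SD of 3. RARRES3 and BST2 stand out in MiaPaCa2 WT cells, at means of 18.97 and 3.74 FPKM, and IFITM3 is at 505 FPKM in Panc1 KO cells.

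IFI6, the protein of the endoplasmic reticulum, differed between genotypes in opposite directions in the lines. It lies on chromosome 1 at 27992575 to 27998723 on the minus strand (GRCh37, hg19, as for all gene positions given here). IFI6 had 15.4, 13.9 and 15.3 FPKM in Panc1 KO libraries, against 8.12, 7.09 and 7.47 FPKM in Panc1 WT libraries. MiaPaCa2 KO libraries held 3.48, 3.51 and 5.12 FPKM of it, against 12.2, 13.1 and 14.5 FPKM in MiaPaCa2 WT libraries. The groups did not overlap in either line, and all 3 Panc1 KO values lay above those of Panc1 WT while all 3 MiaPaCa2 KO values lay below those of MiaPaCa2 WT. MiaPaCa2 KO replicate 3 was the highest of its group. The log2 difference was 0.89 (SE 0.11) in Panc1 and -1.52 (SE 0.11) in MiaPaCa2, a difference between the lines of 2.41 (SE 0.15). In the order of levels Panc1 KO and MiaPaCa2 WT overlapped at the top, Panc1 WT followed, and MiaPaCa2 KO was lowest.

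IFI27, the mitochondrial relative of IFI6, was near 0 in every group. This gene on chromosome 14, at 94571182 to 94583032 on the plus strand, had 0.233, 0.294 and 0.295 FPKM in Panc1 KO libraries and 0.344, 0.17 and 0.099 FPKM in Panc1 WT libraries. MiaPaCa2 KO libraries held 0.06, 0.106 and 0.097 FPKM, and MiaPaCa2 WT libraries 0 (not listed), 0.096 and 0.072 FPKM. KO and WT values overlapped in both lines. At these levels and an unknown depth no difference can be read, and IFI27 entered no fit except that without a filter.

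The IFITM genes lie side by side on the short arm of chromosome 11, IFITM2 at 303655 to 309397 and IFITM1 at 310041 to 315272 on the plus strand, and IFITM3 at 319676 to 329475 on the minus strand. All of them were lower in MiaPaCa2 KO cells by similar amounts, at log2 differences of -1.32 (SE 0.12) for IFITM1, -1.31 (SE 0.08) for IFITM2 and -1.38 (SE 0.05) for IFITM3. In Panc1 KO cells IFITM3 was higher, IFITM2 was lower and IFITM1 was low in both genotypes.

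IFITM1, the cell-surface member, was higher in MiaPaCa2 than in Panc1 cells of either genotype. IFITM1 had 6.17, 6.45 and 5.61 FPKM in MiaPaCa2 KO libraries, against 17.7, 14.6 and 17.8 FPKM in MiaPaCa2 WT libraries, with every KO value below every WT value. Panc1 KO libraries held 1.61, 1.16 and 1.74 FPKM, against 0.673, 1.21 and 1.21 FPKM in Panc1 WT libraries. These Panc1 values overlap, since KO replicate 2 lies below WT replicates 2 and 3. The Panc1 log2 difference was 0.31 (SE 0.12) and it lay past the threshold used for all genes in 13 of 22 alternative settings. It was not past it, for example, without Panc1 WT replicate 1 (0.17), without Panc1 KO replicate 1 (0.27), without Panc1 KO replicate 3 (0.24) or without MiaPaCa2 KO replicate 1 (0.31).

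IFITM2, a member of endosomes and lysosomes, was lower in the KO cells of both lines. IFITM2 had 35.3, 33.02 and 33.4 FPKM in Panc1 KO libraries, against 47.2, 59.4 and 56.96 FPKM in Panc1 WT libraries. MiaPaCa2 KO libraries held 17.7, 16.95 and 17.01 FPKM, against 48.6, 44.8 and 39.8 FPKM in MiaPaCa2 WT libraries. Neither pair of groups overlapped, and KO libraries were closer to each other than WT libraries, with SDs of 1.23 and 6.42 FPKM in Panc1 KO and WT and of 0.435 and 4.42 FPKM in MiaPaCa2 KO and WT. The Panc1 log2 difference was -0.66 (SE 0.08). The difference between the lines, 0.65 (SE 0.12), was the smallest among the 6 members.

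IFITM3, the other endosomal member, was by far the most abundant of the 7 genes. IFITM3 had 479, 513 and 523 FPKM in Panc1 KO libraries, against 343, 351 and 369.9 FPKM in Panc1 WT libraries. MiaPaCa2 KO libraries held 90.3, 93.8 and 91.5 FPKM, against 254, 239 and 228 FPKM in MiaPaCa2 WT libraries. All 4 groups stood apart, in the order Panc1 KO, Panc1 WT, MiaPaCa2 WT and MiaPaCa2 KO. The Panc1 log2 difference was 0.51 (SE 0.05), and the difference between the lines was 1.88 (SE 0.07).

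The make-up of the IFITM signal differed between genotypes in Panc1. IFITM2 made up 6.29% ± 0.479 (SD, n = 3) of the FPKM sum of IFITM1, IFITM2 and IFITM3 in Panc1 KO libraries and 13.3% ± 1.17 in Panc1 WT libraries. Its share was 14.97% ± 0.540 in MiaPaCa2 KO libraries and 14.7% ± 0.686 in MiaPaCa2 WT libraries. IFITM3 made up 93.4% ± 0.507 in Panc1 KO, 86.5% ± 1.23 in Panc1 WT, 79.8% ± 0.606 in MiaPaCa2 KO and 79.8% ± 0.420 in MiaPaCa2 WT libraries. The shares of IFITM2 did not overlap between Panc1 KO and Panc1 WT libraries, and the MiaPaCa2 means lay within 1 SD of each other. The sum itself averaged 540.2 ± 21.5 FPKM in Panc1 KO and 410.1 ± 18.7 FPKM in Panc1 WT cells (log2 difference 0.40), and 115 ± 1.80 FPKM in MiaPaCa2 KO and 301 ± 17.3 FPKM in MiaPaCa2 WT cells (log2 difference -1.38). These genes are related in sequence. Of the 50-base stretches of their coding transcripts, 13.1% in IFITM1, 12.9% in IFITM2 and 13.1% in IFITM3 occur in another of the IFITM genes. Of the 100-base stretches 6.66%, 3.86% and 7.18% do, in the same order. The read length and how reads that map to several places were treated are not given, so the split between them is uncertain. Genes annotated on the other strand overlap IFI6 (1 gene), IFITM1 (1), IFITM2 (1) and IFITM3 (3), and reads of such a pair cannot be told apart because the use of strand is not stated. On the same strand a protein-coding gene overlaps both IFITM1 and IFITM2, and a long noncoding RNA gene overlaps IFI6. How reads in these overlaps were assigned is not given.

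**Figure D3:**
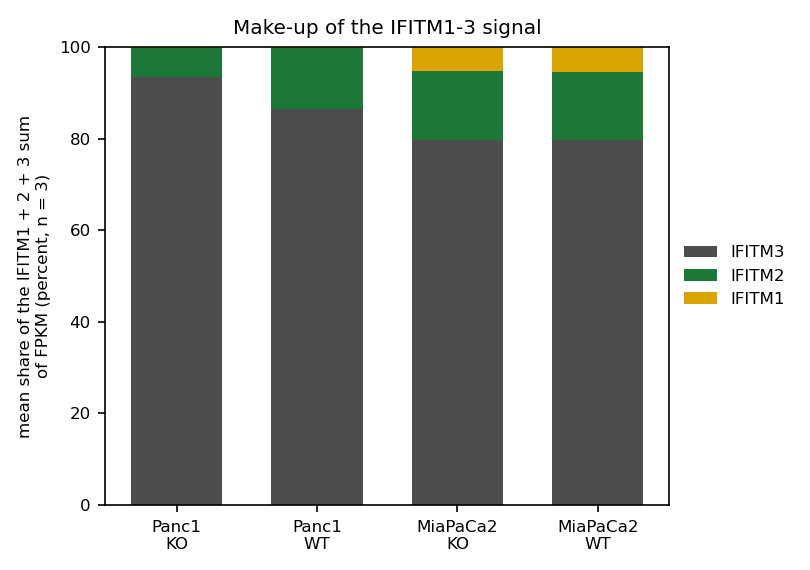
Mean share (percent, n = 3 libraries) of IFITM3, IFITM2 and IFITM1 in the FPKM sum of these genes, by group. IFITM2 takes 6.29% in Panc1 KO and 13.3% in Panc1 WT cells, while the MiaPaCa2 bars are alike; IFITM1, below 0.3% in Panc1, is not visible there.

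BST2, tetherin, was measured above 1 FPKM in MiaPaCa2 WT cells only. It lies on chromosome 19 at 17513748 to 17516439 on the minus strand. BST2 had 0.307, 0.091 and 0.377 FPKM in MiaPaCa2 KO libraries, against 4.12, 2.67 and 4.41 FPKM in MiaPaCa2 WT libraries. Panc1 KO libraries held 0.5, 0.577 and 0.359 FPKM, and Panc1 WT libraries 0.4, 0.182 and 0.499 FPKM. The Panc1 groups overlapped each other and the MiaPaCa2 KO group. BST2 passed the filter through MiaPaCa2 WT cells alone, so a difference there was bound to appear. Its log2 difference was -1.90 (SE 0.14) in MiaPaCa2, where the ratio of the mean FPKM made it 14.5-fold lower, and 0.12 (SE 0.14) in Panc1. With a pseudocount of 0.1 FPKM in place of 1 the MiaPaCa2 value was -3.49.

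RARRES3, the lipid-modifying enzyme, showed the largest MiaPaCa2 difference of the 6 members on the log2(FPKM + 1) scale, while BST2 had the larger ratio of means. It lies on the long arm of chromosome 11 at 63304280 to 63313934 on the plus strand, far from the IFITM genes. RARRES3 had 1.67, 1.57 and 1.33 FPKM in MiaPaCa2 KO libraries, against 16.1, 20.5 and 20.3 FPKM in MiaPaCa2 WT libraries. Panc1 KO libraries held 0.365, 0.061 and 0.18 FPKM, and Panc1 WT libraries 0.296, 0.306 and 0.299 FPKM. The MiaPaCa2 groups stood far apart and the Panc1 groups, both near 0, overlapped. The log2 difference in MiaPaCa2 was -2.98 (SE 0.10), with the mean FPKM 12.5-fold lower, and it ranked 4 from the lowest among 13340 genes tested. In Panc1 it was -0.12 (SE 0.10).

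**Figure D4:**
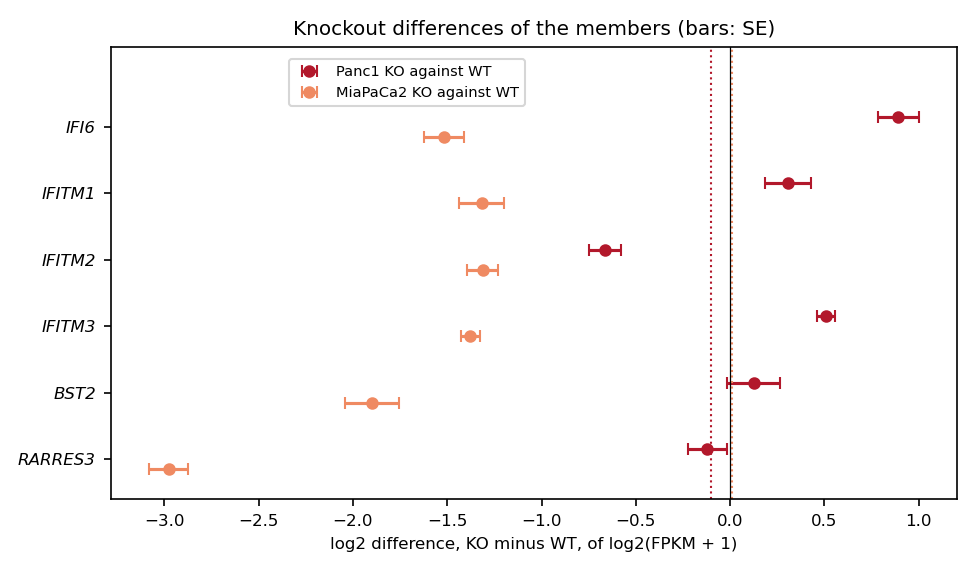
Log2 difference, KO minus WT, of log2(FPKM + 1) for the 6 genes in the fit, in Panc1 (red) and MiaPaCa2 (orange); whiskers are the SE and dotted lines the median of all 13340 genes. MiaPaCa2 values run between -2.98 for RARRES3 and -1.31 for IFITM2, and Panc1 values between -0.66 for IFITM2 and 0.89 for IFI6.

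Set beside all 13340 genes tested, the counts of members were as follows, with nothing read from them since the members were chosen on these values. A gene was called at a Benjamini-Hochberg adjusted p below 0.05. In MiaPaCa2 6 of 6 members were called lower, where 16.3% of all genes were, and 0 were called higher, where 17.8% were. Without overlap between the groups, 6 members were lower (20.5% of all genes) and 0 higher (23.0%). In Panc1 3 members, IFI6, IFITM1 and IFITM3, were called higher, where 21.8% of all genes were, and IFITM2 was called lower, where 41.6% were. Without overlap, 2 members were higher (24.7% of all genes) and 1 lower (45.3%). The signed Panc1 change lay above the MiaPaCa2 change by the same threshold in 6 of 6 members and in 20.0% of all genes, and below it in 0 members and in 37.4% of all genes. The median of all genes was -0.10 in Panc1 and 0.01 in MiaPaCa2, so relative to the median gene each Panc1 difference is higher by that amount. With libraries rescaled by the median ratio, the Panc1 calls of all genes were 49.4% higher and 50.6% lower, in place of 34.4% and 65.6%, and the signs of the members' Panc1 differences stayed as given. BST2 changed between 0.03 and 0.38 and RARRES3 between -0.54 and -0.04 in Panc1 over the alternatives, and RARRES3 passed there in 1 of 22.

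The WT lines already differed in these genes. RARRES3 was 63.2-fold, IFITM1 16.2-fold and BST2 10.4-fold lower by mean FPKM in Panc1 WT than in MiaPaCa2 WT cells, at log2 differences of -3.93 (SE 0.10), -3.13 (SE 0.12) and -1.79 (SE 0.14). IFI6 averaged 7.56 ± 0.523 FPKM in Panc1 WT and 13.3 ± 1.17 FPKM in MiaPaCa2 WT cells, a log2 difference of -0.74 (SE 0.11). IFITM3, at 355 ± 13.9 FPKM in Panc1 WT and 240.4 ± 12.8 FPKM in MiaPaCa2 WT cells, went the other way, at 0.56 (SE 0.05). IFITM2 overlapped between the WT lines. So 4 members were lower and 1 higher in Panc1 WT without overlap, where 42.1% and 42.8% of all genes were. These WT libraries are the same ones that serve as the control of each KO comparison.

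The wider interferon programme, which was not part of the choice of members but was chosen with earlier results of these data known, was lower in MiaPaCa2 KO cells and mixed in Panc1. Of 101 other genes of interferon sensing, signalling and response, in 6 lists, 76 were tested. In MiaPaCa2 6 rose and 39 fell (limma, adjusted p below 0.05), where 17.8% of all genes rose and 16.3% fell, with a median log2 change of -0.16 against 0.01 for all genes. In Panc1 27 rose and 22 fell, where 21.8% of all genes rose and 41.6% fell, with a median of 0.05 against -0.10 for all genes. These shares of all genes are also the ones to set beside the counts of each list below. By a test of the difference itself, the signed Panc1 change lay above the MiaPaCa2 change in 41 of the 76 genes and below it in 13, where 20.0% and 37.4% of all genes did. Of the 76 genes 5 reached 1 FPKM in MiaPaCa2 WT cells only, so that a difference was bound to appear there and between the lines. Without them 71 were left, of which 6 rose and 34 fell in MiaPaCa2. The signed Panc1 change lay above the MiaPaCa2 change in 36 of the 71 and below it in 13. The ligands themselves were hardly seen: 5 of 9 interferon genes occur in the data and 0 passed the filter. Among them IFNL1, a type III interferon, had 0.109, 0.108 and 0 FPKM in MiaPaCa2 KO libraries, against 0.421, 0.333 and 0.538 FPKM in MiaPaCa2 WT libraries, and at most 0.109 FPKM in any Panc1 library. IFNE went otherwise, with means of 0.429 FPKM in Panc1 KO, 0.253 FPKM in Panc1 WT and 0 FPKM in both MiaPaCa2 groups. At such levels and an unknown depth no difference can be read.

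**Figure D5:**
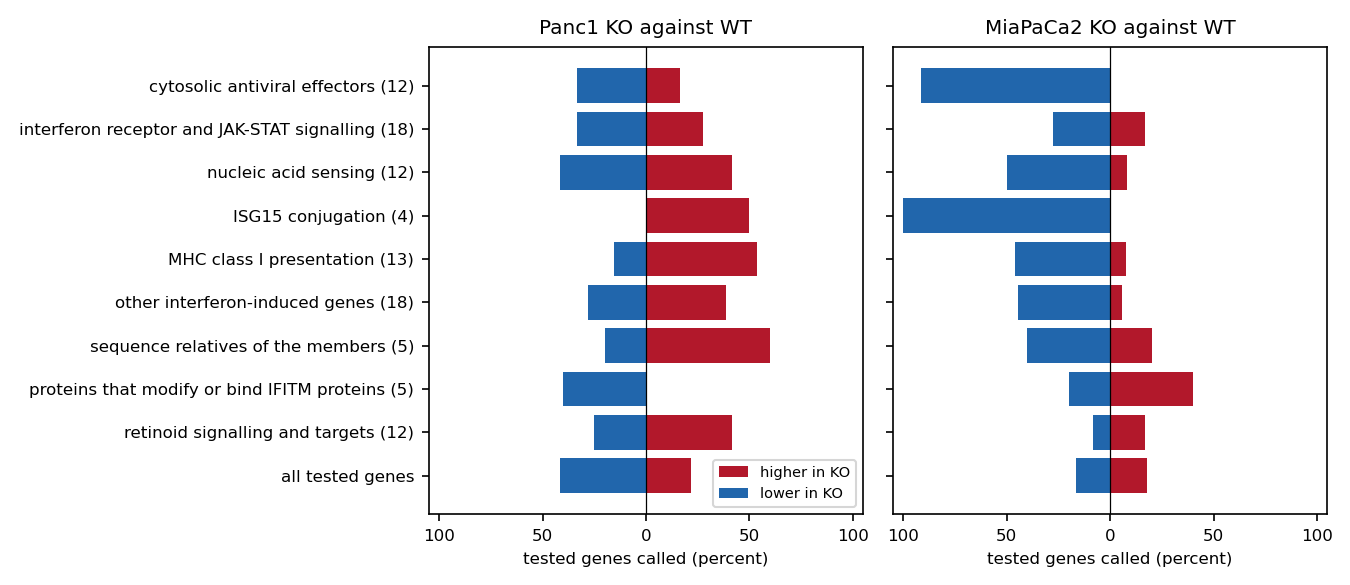
Share of tested genes called higher (red, right) or lower (blue, left) in KO libraries, in percent, for 9 gene lists and for all tested genes, in Panc1 and MiaPaCa2; the number tested is in brackets. In MiaPaCa2 the cytosolic effectors (11 of 12 lower) and the ISG15 genes (4 of 4 lower) reach furthest to the left, where all genes stand at 16.3%. Among these genes OAS1, OAS2 and HERC6 reached 1 FPKM in MiaPaCa2 WT cells only, so their fall was bound to appear.

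The cytosolic antiviral effectors, which act on viral RNA and proteins inside the cell, shared the MiaPaCa2 direction of the membrane genes. Of 12 tested, 0 rose and 11 fell in MiaPaCa2 (median -1.56), and 2 rose and 4 fell in Panc1 (median -0.03). OAS1 and OAS2, which are among the 11, reached 1 FPKM in MiaPaCa2 WT cells only, so their fall was bound to appear. Only 1 rose in Panc1 without Panc1 WT replicate 3, Panc1 KO replicate 2 or Panc1 KO replicate 3. OASL, an antiviral relative of the oligoadenylate synthetases, fell by 3.04 in MiaPaCa2 and had 0.112, 0.138 and 0.26 FPKM in Panc1 KO and 0.132, 0.083 and 0.242 FPKM in Panc1 WT libraries. MX2, a dynamin-like GTPase that blocks retroviruses at the nucleus, was the exception in MiaPaCa2 and rose in Panc1. It averaged 2.68 ± 0.200 FPKM in Panc1 KO and 1.24 ± 0.157 FPKM in Panc1 WT cells (log2 change 0.72, limma adjusted p = 2.4e-06). In MiaPaCa2 it averaged 5.33 ± 0.346 FPKM in KO and 5.02 ± 0.230 FPKM in WT cells (limma adjusted p = 0.468). The ISRE core occurred in the windows of 8 of the 10 genes of this list that were matched by symbol.

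The ISG15 conjugation genes, which attach or remove the ubiquitin-like ISG15, had 0 higher and 4 lower of 4 tested in MiaPaCa2 (median -1.31) and 2 higher and 0 lower in Panc1 (median 0.34). HERC6, which is among the 4, reached 1 FPKM in MiaPaCa2 WT cells only, so its fall was bound to appear. ISG15 itself fell by 2.98 in MiaPaCa2 and had a log2 difference of 0.14 in Panc1 (limma adjusted p = 0.413). UBE2L6, the conjugating enzyme of ISG15, averaged 9.91 ± 0.194 FPKM in Panc1 KO and 2.01 ± 0.490 FPKM in Panc1 WT cells (log2 change 1.87, limma adjusted p = 1.0e-07). In MiaPaCa2 it averaged 6.79 ± 1.26 FPKM in KO and 11.8 ± 0.708 FPKM in WT cells (log2 change -0.73, limma adjusted p = 7.8e-04). USP18, which removes ISG15 and damps receptor signalling, likewise rose by 0.53 in Panc1 and fell by 0.60 in MiaPaCa2 (limma adjusted p = 0.00199 and 0.00255). These opposite moves are like those of IFI6 and IFITM3 in direction. The lists are small and their counts depend on the filter: with 5 FPKM 1 ISG15 gene was higher in Panc1 and 2 lower in MiaPaCa2.

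Genes of MHC class I presentation, which display peptides at the cell surface, had 7 higher and 2 lower of 13 in Panc1 (median 0.27) and 1 higher and 6 lower in MiaPaCa2 (median -0.12). HLA-C averaged 7.28 ± 0.261 FPKM in Panc1 KO and 2.53 ± 0.0852 FPKM in Panc1 WT cells (log2 change 1.23, limma adjusted p = 4.9e-09). In MiaPaCa2 it averaged 1.67 ± 0.156 FPKM in KO and 3.42 ± 0.0705 FPKM in WT cells (log2 change -0.73, limma adjusted p = 1.8e-06). HLA-C shares sequence with other HLA genes and its level is uncertain. ERAP2, a peptidase that trims such peptides, fell in both lines, by 0.35 in Panc1 (limma adjusted p = 0.00159) and by 0.73 in MiaPaCa2 (limma adjusted p = 2.2e-05). The sensors of nucleic acids had 5 higher and 5 lower of 12 in Panc1 (median -0.14) and 1 higher and 6 lower in MiaPaCa2 (median -0.19), where 3 were higher without Panc1 KO replicate 3. IFIH1, which encodes the RNA sensor MDA5, rose by 0.47 in Panc1, where it stayed below 1 FPKM, and fell by 2.39 in MiaPaCa2. IFIH1 passed the filter through MiaPaCa2 WT cells alone. It lies on chromosome 2, whose 788 tested genes matched by symbol had a median of -0.17 relative to all genes in MiaPaCa2. TBK1, the kinase downstream of the sensors, fell by 0.77 in Panc1 (limma adjusted p = 7.4e-05).

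Of the other interferon-induced genes, 18 were tested, with 7 higher and 5 lower in Panc1 (median -0.005) and 1 higher and 8 lower in MiaPaCa2 (median -0.16). IFI44 averaged 0.799 ± 0.255 FPKM in MiaPaCa2 KO and 8.17 ± 1.91 FPKM in MiaPaCa2 WT cells (log2 difference -2.34) and was at most 0.025 FPKM in the group means of Panc1. IFI35 averaged 18.7 ± 0.926 FPKM in Panc1 KO and 11.1 ± 0.270 FPKM in Panc1 WT cells (log2 change 0.71, limma adjusted p = 1.2e-05). Its MiaPaCa2 difference of -0.15 did not pass (limma adjusted p = 0.193). Like BST2, IFI44 reached 1 FPKM in MiaPaCa2 WT cells only and passed the filter through them alone.

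Of the transcription factors STAT2, IRF9 and IRF1, which act in the pathway, STAT2 was lower in Panc1 KO cells and IRF1 in MiaPaCa2 KO cells. STAT2 fell by 0.20 in Panc1 (limma adjusted p = 0.00526), a call that rescaling by the median ratio (-0.10) or quantile normalization (-0.05) ended, and differed by less than 0.01 in MiaPaCa2 (limma adjusted p = 0.975). IRF9 had log2 differences of -0.11 in Panc1 and 0.13 in MiaPaCa2, neither of which passed (limma adjusted p = 0.328 and 0.338). Without MiaPaCa2 WT replicate 1 the MiaPaCa2 value was 0.24 and passed. IRF1, a factor induced by interferon gamma that binds the ISRE as well, averaged 1.91 ± 0.255 FPKM in MiaPaCa2 KO and 4.48 ± 0.619 FPKM in MiaPaCa2 WT cells. Its log2 change there was -0.91 (limma adjusted p = 1.5e-04), and in Panc1 the difference of 0.23 did not pass (limma adjusted p = 0.115) except after rescaling by the median ratio (0.32) or quantile normalization (0.39).

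Receptors, kinases and inhibitors of the pathway had 5 higher and 6 lower of 18 tested in Panc1 (median 0.06), where 21.8% and 41.6% of all genes were, and 3 higher and 5 lower in MiaPaCa2 (median 0.01), where 17.8% and 16.3% were. Neither is read as a result about this list. With median-ratio scaling or quantile normalization 10 were higher in Panc1. SOCS1, a feedback inhibitor of the JAK kinases, was lower in KO cells of both lines. SOCS1 averaged 2.23 ± 0.509 FPKM in Panc1 KO and 4.29 ± 0.0595 FPKM in Panc1 WT cells (log2 change -0.72, limma adjusted p = 2.0e-05), and 11.5 ± 0.658 FPKM in MiaPaCa2 KO and 16.1 ± 0.850 FPKM in MiaPaCa2 WT cells (log2 change -0.45, limma adjusted p = 0.00238). PIAS1, an inhibitor of the pathway, fell by 0.50 in Panc1 (limma adjusted p = 3.5e-05). The ISRE core was in the windows of 1 of the 15 genes of this list that were matched by symbol.

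Relatives of the members by sequence were mixed. Of 5 tested, 3 rose and 1 fell in Panc1, and 1 rose and 2 fell in MiaPaCa2. Promoter windows of the lists were looked up by the symbol in the data, so genes under another symbol were missed. The ISRE core was in 0 of the 3 relatives found in this way. IFI27L2, of the family of IFI6 and IFI27, rose in both lines. IFI27L2 averaged 30.5 ± 1.11 FPKM in Panc1 KO and 14.2 ± 1.37 FPKM in Panc1 WT cells (log2 change 1.06, limma adjusted p = 8.4e-08), and 16.5 ± 0.241 FPKM in MiaPaCa2 KO and 13.05 ± 1.04 FPKM in MiaPaCa2 WT cells (log2 change 0.32, limma adjusted p = 0.00314). IFITM10, a distant relative of the IFITM genes, averaged 2.81 ± 0.483 FPKM in Panc1 KO and 6.90 ± 0.445 FPKM in Panc1 WT cells (log2 change -1.06, limma adjusted p = 5.2e-07), with a difference of 0.09 in MiaPaCa2. HRASLS, a relative of RARRES3, rose by 0.38 in Panc1 and fell by 0.37 in MiaPaCa2, and IFI27L1 fell by 0.36 in MiaPaCa2. The MiaPaCa2 calls of HRASLS and IFI27L1 held in 14 and 16 of 22 alternatives. Both were lost without MiaPaCa2 WT replicate 2, WT replicate 3 or KO replicate 3, that of HRASLS also without KO replicate 2 and that of IFI27L1 also without KO replicate 1, over ranges of -0.55 to -0.21 and -0.46 to -0.28. The Panc1 call of HRASLS was lost without Panc1 WT replicate 2 (0.30), where 2 relatives fell in Panc1.

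Proteins that modify or bind IFITM proteins had 0 higher and 2 lower of 5 in Panc1 and 2 higher and 1 lower in MiaPaCa2. NEDD4, a ubiquitin ligase that marks IFITM3 for breakdown, went opposite to IFITM3 in each line, at 5.19 ± 0.418 FPKM in Panc1 KO and 7.61 ± 0.410 FPKM in Panc1 WT cells (log2 change -0.48, limma adjusted p = 5.6e-05). It averaged 5.72 ± 0.488 FPKM in MiaPaCa2 KO and 4.48 ± 0.00208 FPKM in MiaPaCa2 WT cells (log2 change 0.29, limma adjusted p = 0.00571). ZMPSTE24, a membrane protease with which IFITM proteins cooperate, fell by 0.56 in Panc1 (limma adjusted p = 6.9e-06). SETD7, a methyltransferase that acts on IFITM3, rose by 0.40 in MiaPaCa2 (limma adjusted p = 2.9e-04). VAPA, a protein of the endoplasmic reticulum that IFITM3 binds, fell by 0.14 in MiaPaCa2 (limma adjusted p = 0.0368), which held in 14 of 22 alternatives over a range of -0.17 to -0.09. This call was lost without Panc1 WT replicate 2, Panc1 KO replicate 2, MiaPaCa2 WT replicate 2 or 3, or MiaPaCa2 KO replicate 1 or 2. Genes of retinoid signalling, the other inducer of RARRES3, had 5 higher and 3 lower of 12 in Panc1 and 2 higher and 1 lower in MiaPaCa2. Without Panc1 KO replicate 2, 3 were higher in Panc1. In MiaPaCa2 1 was higher without WT replicate 2 or 3 or KO replicate 1 or 3, and 2 were lower without WT replicate 3. ALDH1A3, which makes retinoic acid, fell by 1.19 in Panc1 (limma adjusted p = 1.2e-08), and RARA, a retinoic acid receptor, rose by 0.35 in MiaPaCa2 (limma adjusted p = 0.00438).

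The likeness of profiles was measured as the root mean square difference of log2(FPKM + 1) over the 12 libraries, each profile centred on its own mean, and is a description over points that share libraries. Among members the most alike were IFI6 and IFITM3 (0.56) and IFI6 and IFITM2 (0.59), and the least alike IFITM3 and RARRES3 (2.10). The nearest other gene to IFI6 was SECTM1 at 0.16, where IFI6 itself varied by 0.68 about its mean. SECTM1 averaged 5.12 FPKM in Panc1 KO, 2.83 FPKM in Panc1 WT, 1.18 FPKM in MiaPaCa2 KO and 3.94 FPKM in MiaPaCa2 WT cells. Nearest to IFITM1 was WARS at 0.23, with 49.5 FPKM in Panc1 KO, 33.0 FPKM in Panc1 WT, 132 FPKM in MiaPaCa2 KO and 255 FPKM in MiaPaCa2 WT cells. IFITM2 was closest to KRT15 (0.21) and IFITM3 to HES4 (0.18). BST2 was closest to OAS1 (0.19), a gene at 3.06 FPKM in MiaPaCa2 WT cells and at most 0.181 FPKM in the other group means, and RARRES3 to PTX3 (0.15). The nearly flat profile of IFI27 was closest to ZNF175 (0.06). Second came ZNF488 for IFI6, TNK2 for IFI27, ADORA1 for IFITM1, PRADC1 for IFITM2, MID1IP1 for IFITM3, NTS for BST2 and IFIT1 for RARRES3.

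Genes within 250 kb of the members other than IFI27 were matched to the annotation by symbol. Neighbours deposited under another symbol than that of the annotation are missing from the counts below. The matched genes had MiaPaCa2 differences between -0.81 and 1.04, both near the IFITM genes. The highest was that of SIGIRR, an inhibitor of interleukin receptor signalling. Around the IFITM genes 3 of 18 tested neighbours rose and 2 fell in MiaPaCa2 (median 0.003), and 2 rose and 12 fell in Panc1 (median -0.26). Around BST2 0 of 14 rose and 5 fell in MiaPaCa2 (median -0.09, the lowest at -0.35), and 8 rose and 0 fell in Panc1 (median 0.22). Around IFI6 1 of 7 rose and 4 fell in MiaPaCa2 (median -0.17, the lowest at -0.46), and 1 rose and 5 fell in Panc1 (median -0.35), where IFI6 itself was higher. RARRES3 had 2 tested neighbours matched by symbol, with 0 calls in MiaPaCa2 and 1 fall in Panc1, and this count may be incomplete. Over all genes 17.8% rose and 16.3% fell in MiaPaCa2, and 21.8% rose and 41.6% fell in Panc1. The medians of genes matched by symbol on chromosomes 1, 11, 14 and 19, where the members lie, differed from that of all genes by -0.07 to 0.06 in both lines.

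Markers of other cell types were compared as well. The 6 ductal markers were KRT7, KRT8, KRT18, KRT19, EPCAM and CDH1, and KRT8, KRT18 and KRT19 made up most of their sum. This sum ran between 1114 and 1228 FPKM in Panc1 KO and between 1216 and 1252 FPKM in Panc1 WT libraries. It ran between 869 and 899 FPKM in MiaPaCa2 KO and between 1224 and 1262 FPKM in MiaPaCa2 WT libraries, so it was lower together with the members there. Of 5 markers tested, 3 rose and 1 fell in Panc1, and 0 rose and 3 fell in MiaPaCa2. The part of this shift in the members' differences was not tested. The leukocyte markers (PTPRC, CD3E, CD79A, CD14, ITGAM and CSF1R, of which 5 occur in the data) summed to between 0.778 and 0.916 FPKM in Panc1 KO and between 0.541 and 0.633 FPKM in Panc1 WT libraries, and to between 0.495 and 0.678 FPKM in MiaPaCa2 KO and between 0.21 and 0.493 FPKM in MiaPaCa2 WT libraries. PTPRC, which marks all leukocytes, was at most 0.009 FPKM in any library.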

How the data were processed

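RNA-seq libraries were sequenced on a BGISEQ-500 from total RNA, per the labels' protocols. Per the submitters' processing notes, cleaned reads were aligned to hg19 with TopHat2 2.0.14, and STAR 2.5.2a served to compute FPKM. The authors deposited FPKM per gene symbol, 1 table per library, with no counts. The sources used here do not give library preparation, strand, read length or the handling of multi-mapping reads.

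Genes that a library does not list were set to 0, and no symbol was duplicated. Whole reads were not recovered. Among 480 to 530 short genes per library, those with a low implied number of reads were used at each trial depth. The smallest mean distance to a whole number over the depths tried was 0.197 to 0.217. Values without steps give 0.25 on average at a given depth. The smallest over many depths lies below that, so steps cannot be judged by it. A count test was therefore not used. Values on the scale of log2(FPKM + 1) were fitted with limma 3.58.1 (R 4.3.3), 1 mean per group over 12 libraries, 8 residual degrees of freedom and empirical Bayes moderation that follows the mean-variance trend. Tests were two-sided, with Benjamini-Hochberg adjustment over the 13340 genes that averaged 1 FPKM or more across a line's 6 libraries. It was tested on simulated data. Contrasts compared KO with WT in Panc1 and in MiaPaCa2, these changes with each other, and Panc1 WT with MiaPaCa2 WT.

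The members and the gene lists were chosen with earlier results of these data known. Named besides the members were ASAP2, STAT2, IRF9 and IRF1; from each list and line the called genes with the largest change, no overlap and at least 1 FPKM (up to 3, of which the first is given, and all for signalling, relatives and IFITM partners); and the 2 nearest genes of each member. IFNL1 and the markers were named after their values were seen, and some genes are not reported here. Positions came from GENCODE release 44 on GRCh37, where RARRES3 is PLAAT4, and promoter windows from RefSeq (GRCh38.p14). Alternatives were a pseudocount of 0.1, no filter or 5 FPKM, sum (TPM) or median-ratio scaling, quantile normalization, no trend, array weights, each line alone, a replicate block, each library left out, and the IFITM genes summed.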

Additional observations from a re-analysis of the deposited data

Results flagged for a closer look

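IFI6 and IFITM3 were picked out because all 3 KO libraries of Panc1 lay above, and all 3 of MiaPaCa2 below, the WT libraries of their line. The Panc1 change minus the MiaPaCa2 change was 2.41 for IFI6 and 1.88 for IFITM3 on the log2 scale. No p-value is given for these differences and nothing is read from their calls, since the members were chosen on these values.

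Other named genes were picked out because the knockout change differed between the lines by limma's test of the difference, with Benjamini-Hochberg adjustment over 13340 genes. Each value is the Panc1 change minus the MiaPaCa2 change in log2. The signed Panc1 change was the higher one for ISG15 (3.12), OASL (3.06), IFIH1 (2.86), UBE2L6 (2.60), IFI44 (2.32), HLA-C (1.96), IRF1 (1.14) and USP18 (1.13). The same held for IFI35 (0.86), HRASLS (0.75), IFI27L2 (0.74), MX2 (0.65) and ERAP2 (0.39). IFIH1 and IFI44 reached 1 FPKM in MiaPaCa2 WT cells only and passed the filter through them alone. The signed Panc1 change was the lower one for ASAP2 (-1.23), IFITM10 (-1.15), ALDH1A3 (-1.09), NEDD4 (-0.77), TBK1 (-0.77), PIAS1 (-0.52), ZMPSTE24 (-0.49), SETD7 (-0.42) and STAT2 (-0.20). The largest adjusted p among them was 0.0333, for STAT2, and that call held in 10 of 21 alternatives, over a range of -0.27 to -0.02. It was lost with any one of 8 libraries left out, at values between -0.21 and -0.17.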

How the results depend on the processing

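Counts of calls over all genes stayed within 1.5 times of the values as reported under every alternative run. The replicate block gave 8141 calls in Panc1 (8466 as reported), 3959 in MiaPaCa2 (4545), 7247 for the difference (7661) and 10915 between WT lines (11034). The deviations of same-numbered KO and WT libraries from their group means correlated across genes at 0.017 to 0.078 in Panc1 and at -0.165 to -0.002 in MiaPaCa2. With 3 libraries per group this cannot show whether they share more than a number. With a library left out the counts ran from 7647 to 8812, 3412 to 4588, 6944 to 7663 and 10650 to 11179. Members called lower in Panc1 were 2 with array weights, where RARRES3 passed, in place of 1. Summing the IFITM genes turned IFITM2 in Panc1 to 0.40 (-0.66 as reported) and IFITM1 between WT lines to 0.44 (-3.13), because the sum is mostly IFITM3. No other value of a member changed sign. For the difference between lines, calls were 34.8% upward as deposited, 51.1% after median-ratio scaling and 47.8% after quantile normalization. Fitting each line alone gives no value for the difference or for the WT lines. Leaving out interferon genes that reached 1 FPKM in 1 group only was chosen after the data were seen. Unknown depth limits IFI27, BST2 in 3 groups and RARRES3 in Panc1.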
